A study of Mus musculus with 29 samples.

Results

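The 10 genes described here belong to the Trem2 pathway and to the gene programme that microglia switch on around damaged tissue, known as the disease-associated microglia programme. The members are Trem2, Tyrobp, Clec7a, Axl, Itgax, Apoe, Lpl, Spp1, Cst7 and Gpnmb. They were listed by name, with earlier results of these libraries known, and each symbol matched 1 identifier among the 48709 Ensembl identifiers of the count tables. RNA was sequenced in 29 libraries from 3 mouse experiments in which miR-99b-5p was blocked with an antisense inhibitor made of locked nucleic acid (anti-miR-99b), and a scrambled oligonucleotide (sc-control) was given to the controls. In the first, C57BL/6J mice aged 3 months had lipid nanoparticles placed in the prefrontal cortex (PFC), which held anti-miR-99b in 3 mice and sc-control in 3 mice, and the tissue was collected 5 days later, with 1 mouse per library. In the second, primary microglia from CD1 pups at postnatal day 1, grown with medium conditioned by L929 cells, were kept for 2 days with the inhibitor (n = 4) or with the scrambled oligonucleotide (n = 4). In the third, microglia treated in this way for 2 days were moved onto cortical neurons from CD1 embryos at embryonic day 17.5, and RNA of the whole co-culture was taken after 2 further days (n = 7 with anti-miR-99b microglia, n = 8 with sc-control microglia). For the cultures no source used here says whether libraries came from separate preparations, so that p-values there measure only the spread between libraries, which may be technical.

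Trem2 is a lipid-sensing receptor on the surface of microglia. It has no signalling tail of its own and passes its signal through the adaptor Tyrobp, also called DAP12, to the kinase Syk. Microglia that meet amyloid, myelin debris or dying neurons lower their homeostatic genes and raise the lipid genes Apoe and Lpl, the receptors Clec7a, Axl and Itgax, and the secreted or lysosomal products Spp1, Cst7 and Gpnmb. A large share of that shift is known to need Trem2.

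The blocked miRNA shares its seed, bases 2 to 8, with 2 other mature mouse miRNAs in RefSeq (GRCm38.p6), and these 3 sequences are shown because they share the bases that pair with a target. The seed is in capitals.
miR-99b-5p: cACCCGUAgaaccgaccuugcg
miR-99a-5p: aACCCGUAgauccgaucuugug
miR-100-5p: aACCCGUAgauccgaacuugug
The miR-99b-5p sequence lies at chr17:17830194-17830215 on the plus strand. Counted from the 5′ end of miR-99b-5p, miR-99a-5p differed by C1A, A11U, C16U and C21U, and miR-100-5p by C1A, A11U, C16A and C21U. The site that pairs with the seed, TACGGGT, was in the annotated 3′UTR of 0 of the 10 members and of 1.19% of 21028 genes, and the shorter site that pairs with bases 2 to 7, ACGGGT, was in 0 of the 10 members and in 5.83% of genes. The search covered GENCODE M21 transcripts on the sense strand, and the 2 motifs overlap by 6 bases. Mature miRNAs are not captured by poly(A) libraries, so that the targeted RNA itself has no value in these counts.

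Between 21324156 and 37901110 reads per library fell on genes. Levels are reads per 1e+06 reads on genes (CPM), with library sizes scaled by edgeR's TMM factors. Microglial content is the mean log2 CPM of 13 pan-microglial genes, Csf1r, Itgam, Ptprc, Laptm5, Cd53, Ly86, Spi1, Nckap1l, Dock2, Arhgdib, Fermt3, Myo1f and Was. Its geometric mean was 555 to 586 CPM in the microglia with sc-control, 10.9 to 15.6 CPM in the PFC and 7.58 to 9.18 CPM in the co-cultures with sc-control. In bulk RNA, more microglia and more RNA of these genes per microglial cell cannot be told apart. The co-cultures held few microglial transcripts beside neuronal and astrocytic ones: the 10 neuron markers summed to 8073 to 8390 CPM and the 10 astrocyte markers to 2583 to 2781 CPM with sc-control. The cultured microglia carried the pan-microglial markers, but several homeostatic genes were low in them for their content: with sc-control the mean was 0.183 CPM for Siglech against 19.1 CPM in the whole PFC, 15.3 against 29.7 CPM for Tmem119 and 68.1 against 32.98 CPM for P2ry12. No pair of libraries was closer than sampling noise allows. In the PFC, 1 sc-control mouse (replicate 4) stood apart from the other 2 and close to the anti-miR-99b mice, so that PFC results are given with and without it.

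The member levels differed widely between genes. They were scaled per kilobase of exon, with all exons of a gene's annotated transcripts merged, from 667 bases for Tyrobp to 10478 for Lpl, so that genes with long rarely used exons have lower values. Trem2 lies at chr17:48346401-48354147 (GRCm38, plus strand) with 4946 exon bases and Spp1 at chr5:104435118-104441050 (plus strand) with 1648. On this scale Apoe, the lipid carrier that Trem2 binds, was the highest member in all 3 experiments, with 650 ± 27.4 CPM per kb in the PFC (SD, n = 3), 7407 ± 405 in microglia (n = 4) and 362 ± 13.9 in the co-cultures (n = 8), all with sc-control. Spp1, which encodes the secreted protein osteopontin, followed in microglia with 2827 ± 85.6 CPM per kb, and Tyrobp came next with 2056 ± 62.6. In the PFC and the co-cultures Tyrobp was second instead, at 33.3 ± 7.03 and 13.1 ± 1.63 CPM per kb, though in the co-cultures Spp1 lay within that spread at 12.3 ± 2.25. Itgax, the integrin chain CD11c, was the lowest of the 10 members in each experiment, with 0.381 ± 0.268, 13.1 ± 1.22 and 0.0537 ± 0.0356 CPM per kb in the same order.

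Set against microglial content, the order changed with the setting. The values that follow are a member's CPM divided by the geometric mean CPM of the 13 pan-microglial genes, as a ratio on the scale with 0.5 CPM added. Bulk RNA of the PFC and the co-cultures also holds reads of other cells, so these ratios are not levels within microglia. The part of other cells in them was not tested. Gpnmb, a glycoprotein of lysosomal and melanosomal membranes, had a ratio of 7.69 to 8.29 in sc-control microglia, 0.57 to 1.44 in the PFC and 1.5 to 2.48 in the co-cultures. Spp1 followed the same order, with 7.62 to 8.66, 0.756 to 1.41 and 2.06 to 3.12. On this measure both were thus highest in the cultures of microglia alone, with no overlap between those libraries and the others. Axl, a receptor of the TAM family that takes up dying cells, went the other way, with 0.73 to 0.808 in microglia against 4.30 to 5.26 in the PFC and 3.30 to 3.85 in the co-cultures, and Apoe did so too, at 25.7 to 30.1, 93.6 to 125 and 82.6 to 103. Trem2 had a ratio of 1.84 to 2.13 in the PFC, 1.27 to 1.31 in microglia and 0.377 to 0.598 in the co-cultures, the lowest of the 3 on this measure. No test was made across experiments, since strain, age and culture differ with them. The content measure itself depends on the marker. From microglia to co-cultures Csf1r, the receptor for Csf1, fell to 0.282% of its mean sc-control CPM and Arhgdib to 5.9%. Trem2 was at 0.455%, Tyrobp at 0.637%, Spp1 at 0.435%, Gpnmb at 0.343%, Lpl at 2.67% and Axl at 6.72%. Trem2, Spp1 and Gpnmb thus kept a larger share than Csf1r, so relative to Csf1r alone they were higher in co-cultures than in microglia. The orders given for these genes hold for the mean of 13 genes and not for Csf1r alone.

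**Figure D1:**
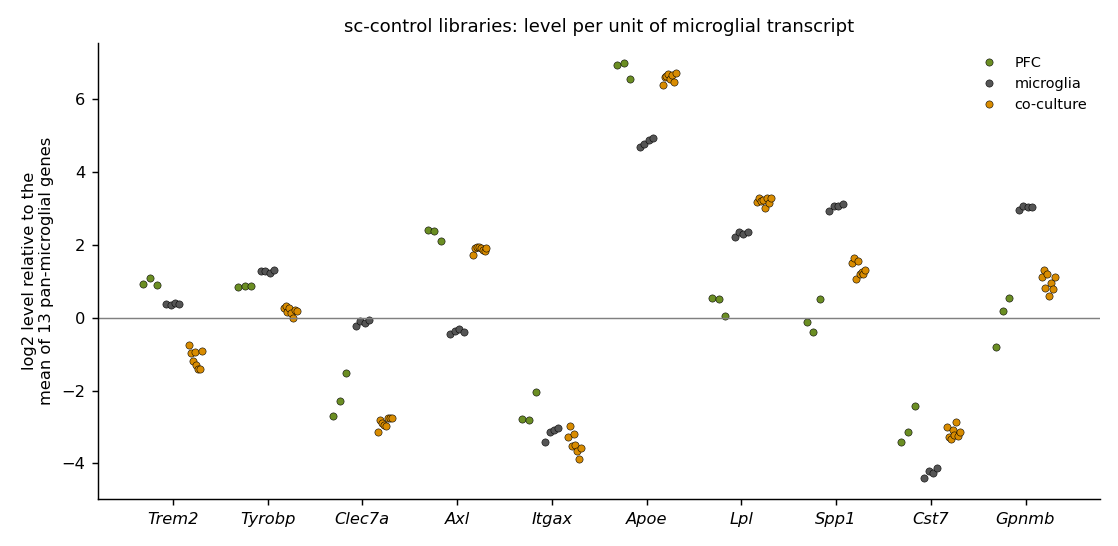
Level of each member relative to microglial content in the sc-control libraries, as the log2 of its CPM (with 0.5 added) minus the mean log2 CPM of 13 pan-microglial genes. Each point is 1 library of the PFC (green), microglia (grey) or co-cultures (orange), and Gpnmb and Spp1 are highest in microglia while Axl and Apoe are lowest there. The PFC and co-culture values include reads of other cells.

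In the co-cultures, 6 of the 9 members that passed the filter on low counts rose with anti-miR-99b microglia and 0 fell, by a threshold of 0.05 on the adjusted p-value and of 0.1 on the size of the log2 fold change (log2FC). Over all 16193 genes tested, 0.846% were called higher by this rule and 0.556% lower. The 6 were Spp1, Trem2, Clec7a, Gpnmb, Tyrobp and Lpl. The median log2FC was 0.37 over the 9 members and 0.00 over all genes tested (edgeR quasi-likelihood test, Benjamini-Hochberg adjustment over all genes). Itgax did not pass the filter, with 3 to 15 reads per library, and was not tested.

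Spp1 showed the clearest separation. Its level was between 15.2 and 25.4 CPM (median 18.9) in the 8 sc-control co-cultures and between 29 and 44.4 CPM (median 38.6) in the 7 anti-miR-99b co-cultures. Every anti-miR-99b library lay above every sc-control library, which held for 0.303% of the genes tested. The log2FC was 0.87 ± 0.09 (SE, adjusted p = 7.74e-06, edgeR), 1.83-fold, and the exact two-sided permutation test over libraries gave p = 0.000155, the smallest that 7 against 8 libraries allow. Spp1 shares exon sequence with Gm42793, a gene model of unknown status on the same strand, and its counts are uncertain to that extent.

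The receptor pair rose as well. Trem2 was at 2.43 to 4.99 CPM (median 3.20) with sc-control, from 64 to 155 reads, and at 4.75 to 6.42 CPM (median 5.26) with anti-miR-99b, from 121 to 199 reads. Only sc-control replicate 1 overlapped the anti-miR-99b range, and 5 of the 7 anti-miR-99b libraries exceeded all 8 sc-control libraries. The log2FC of Trem2 was 0.70 ± 0.11 (adjusted p = 1.13e-03, edgeR; exact permutation p = 0.000622). Tyrobp, its adaptor, was at 7.15 to 10.5 CPM (median 8.65) against 9.70 to 12.5 CPM (median 11.5), with 6 of 7 anti-miR-99b libraries above every sc-control library. Its log2FC was 0.37 ± 0.07 (adjusted p = 4.17e-03, edgeR), smaller than that of its receptor.

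Among the other receptors, Clec7a rose and Axl did not. Clec7a, or dectin-1, recognises fungal glucans and signals through Syk. It was close to the detection limit, at 0.51 to 0.762 CPM (13 to 29 reads) with sc-control and 0.687 to 1.34 CPM (16 to 37 reads) with anti-miR-99b, and its log2FC was 0.69 ± 0.16 (adjusted p = 0.0241, edgeR). Axl was at 27.8 to 30.3 CPM with sc-control and 25.65 to 29.97 CPM with anti-miR-99b, with a log2FC of -0.05 (95% interval -0.11 to 0.02). Itgax was listed at 0.0788 to 0.538 and 0.201 to 0.484 CPM, too low to compare.

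The lipid genes were split. Lpl, lipoprotein lipase, was at 63 to 82.6 CPM (median 74.9) with sc-control and 80.7 to 86.9 CPM (median 82.8) with anti-miR-99b. Its rise was small, 1.12-fold, with a log2FC of 0.17 ± 0.04 (adjusted p = 0.0211, edgeR), and 4 of 7 anti-miR-99b libraries were above all controls. Apoe was at 737 to 824 CPM against 657 to 838 CPM, with a log2FC of 0.00 and a 95% interval of -0.09 to 0.08. The anti-miR-99b replicates 7 and 10 held the lowest Apoe levels of all 15, at 657 and 670 CPM.

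Of the remaining members, Gpnmb rose and Cst7 did not pass the test. Gpnmb was at 11.3 to 19.7 CPM (median 15.3) with sc-control and 15.7 to 25.9 CPM (median 21.2) with anti-miR-99b. The groups overlapped through 1 anti-miR-99b library, replicate 10, and the log2FC was 0.47 ± 0.10 (adjusted p = 0.0160, edgeR). Cst7, or cystatin F, an inhibitor of lysosomal cathepsins, had 8 to 20 reads per library, and its log2FC of 0.21 had a 95% interval from -0.20 to 0.61.

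**Figure D2:**
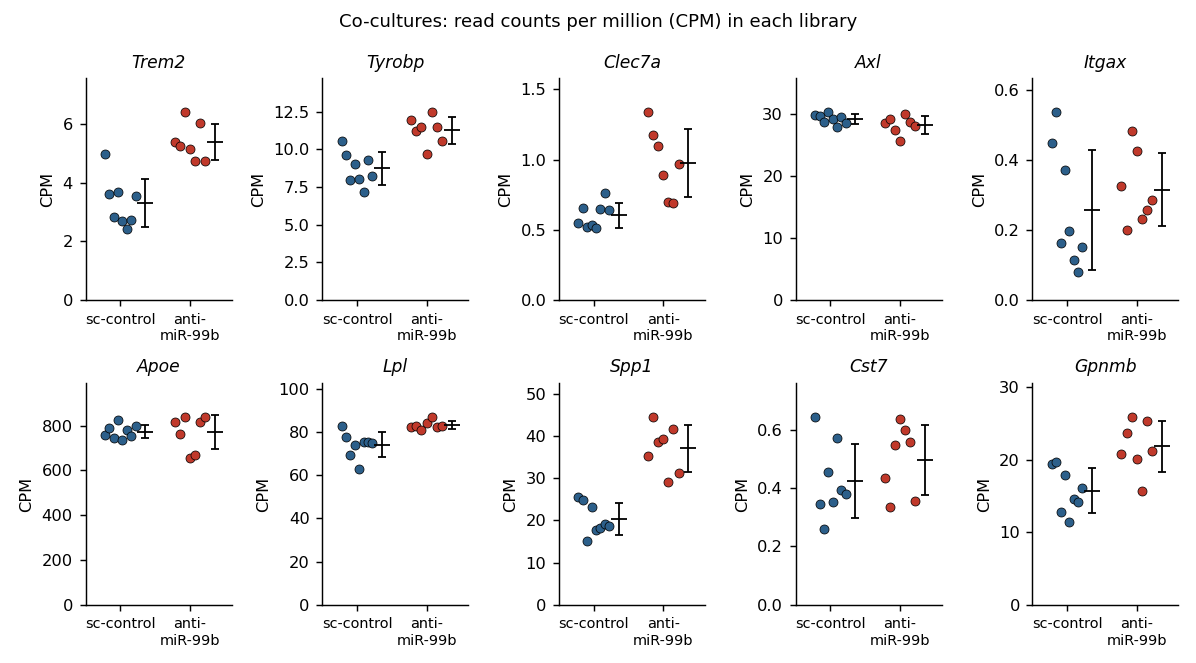
Level of each member (CPM, axis from 0) in the 8 sc-control (blue) and 7 anti-miR-99b (red) co-cultures, 1 point per library, with the mean ± SD in black. Spp1 is the member whose groups do not overlap, Trem2, Tyrobp, Clec7a, Lpl and Gpnmb are shifted upward with overlap, and Axl and Apoe are level.

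Part of these changes went along with microglial content. The 13 pan-microglial genes were on average 0.13 higher (log2) with anti-miR-99b, at 8.05 to 9.80 CPM against 7.58 to 9.18 CPM. Of the 13, 11 were higher and 2 lower, and 2, Csf1r and Cd53, were called higher. The size of the shift depends on the marker: Csf1r alone was at 11.0 to 12.0 CPM against 7.72 to 10.5 CPM, with no overlap. When library sizes were scaled to this content, 5 members stayed called higher: Spp1 (log2FC 0.76), Trem2 (0.59), Clec7a (0.58), Gpnmb (0.36) and Tyrobp (0.25), where 0.55% of all genes were called higher. Lpl, at 0.04 ± 0.06 (adjusted p = 0.551, edgeR), no longer passed. Axl was called lower at -0.17 (adjusted p = 0.0445, edgeR), a direction in which 16.2% of all genes were called on this scale and in which the median gene lay at -0.12. This fit gave all genes 1 common spread (infinite prior degrees of freedom), so its p-values do not rest on a member's own scatter. Exact permutation of the libraries gave unadjusted p-values of 0.000311 for Spp1, 0.000932 for Trem2, 0.00528 for Tyrobp, 0.0398 for Clec7a, 0.0416 for Gpnmb and 0.00218 for Axl. When 1 library was left out in turn, the adjusted p-value of Axl ranged from 0.0073 to 0.129 (edgeR), and its call was often lost. With Csf1r alone as the measure of content, an alternative added after seeing the data, Tyrobp was at 0.04 and no longer called. Over all alternative settings the lowest values were 0.56 for Spp1, 0.39 for Trem2, 0.37 for Clec7a and 0.16 for Gpnmb. The highest adjusted p-values there were 0.170 for Clec7a and 0.0674 for Gpnmb (edgeR). They reached 0.0552 for Clec7a and 0.0625 for Tyrobp when 1 library was left out (edgeR).

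**Figure D3:**
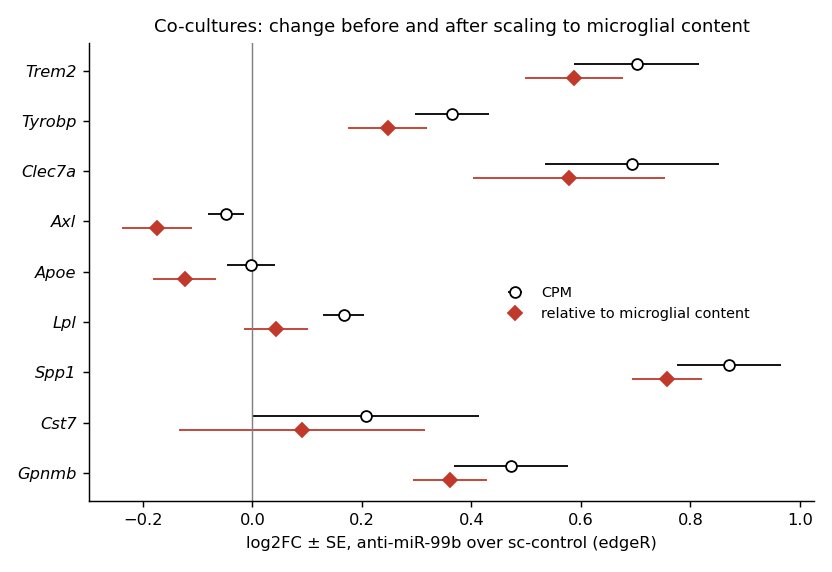
log2FC (anti-miR-99b over sc-control, ± SE) of the 9 tested members in the co-cultures in CPM (open circles) and relative to microglial content (red diamonds). Scaling lowered every value, as content was higher with anti-miR-99b. Spp1, Trem2, Clec7a, Gpnmb and Tyrobp stayed called higher, Lpl and Cst7 lay just above 0, and Axl and Apoe lay below 0.

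The libraries came from 4 sequencing lanes, named in the library labels. Within lanes, the difference of mean log2 CPM was positive in all 4 for Spp1 (0.65 to 1.09), Trem2 (0.29 to 0.96), Tyrobp (0.19 to 0.44), Gpnmb (0.18 to 0.89), Clec7a (0.09 to 0.67) and Lpl (0.04 to 0.23), from 1 to 3 libraries a group. With lane as a term Clec7a missed the threshold (adjusted p = 0.0511, edgeR).

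In the PFC, 0 of the 10 members passed the thresholds of 0.1 for the adjusted p-value and 0.2 for the log2FC (edgeR), where 0.0864% of 17364 genes did, all of them higher. At an unadjusted p-value under 0.05, 4 members were higher, Tyrobp, Trem2, Apoe and Itgax, beside 5.17% of all genes tested. DESeq2 called 0 members as well. Tyrobp was higher in every anti-miR-99b mouse than in every sc-control mouse, as were 7.52% of all genes. The median log2FC over the 10 members was 0.39, against 0.00 over all genes, and 9 of the 10 were positive beside 50.6% of all genes.

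Trem2 was at 30.4, 33.7 and 27.6 CPM after the inhibitor (replicates 1 to 3) and at 20.5, 22.7 and 28.2 CPM after sc-control (replicates 2 to 4). Tyrobp was at 30.4, 31.2 and 27.8 CPM against 19.6, 19.4 and 27.6 CPM, and Clec7a at 3.72, 4.11 and 4.04 CPM against 1.23, 1.73 and 4.89 CPM. In each of these genes the first 2 sc-control mice were low and replicate 4 lay at or next to the anti-miR-99b level. Itgax, at 4.33, 3.61 and 2.66 against 1.12, 1.06 and 3.32 CPM, and Cst7, at 2.33, 2.32 and 2.30 against 0.559, 0.74 and 2.39 CPM, had the same pattern. The log2FC was 0.36 ± 0.12 for Trem2, 0.42 ± 0.13 for Tyrobp, 0.59 ± 0.40 for Clec7a, 0.92 ± 0.39 for Itgax and 0.90 ± 0.42 for Cst7, with adjusted p-values from 0.536 to 0.708 (edgeR).

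Spp1 and Gpnmb varied most among the mice. Spp1 was at 16.1, 18.4 and 10.7 CPM with anti-miR-99b and at 9.86, 7.72 and 21.5 CPM with sc-control, and Gpnmb at 25.9, 26.1 and 13.7 against 5.87, 11.8 and 21.9 CPM. The highest Spp1 value of the 6 mice was thus a control, and the log2FC was 0.20 ± 0.33 for Spp1 and 0.73 ± 0.39 for Gpnmb. With 1 mouse left out in turn, that of Spp1 ranged from -0.06 to 0.77 and that of Gpnmb from 0.37 to 1.32, both highest without sc-control replicate 4. Axl stood at 65.6, 65.5 and 66.2 against 58.3, 55.7 and 66.4 CPM, and Apoe at 1863, 1597 and 1447 against 1354, 1359 and 1458 CPM. Lpl was the exception: it was lower in every anti-miR-99b mouse (13.5, 13.6 and 14.0 CPM) than in every sc-control mouse (15.6, 15.0 and 15.4 CPM), as were 5.81% of all genes, and its log2FC of -0.16 ± 0.08 did not pass (unadjusted p = 0.0711, adjusted p = 0.660, edgeR). With 3 against 3 mice, the exact permutation test cannot go below p = 0.1, which Lpl and Tyrobp reached.

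**Figure D4:**
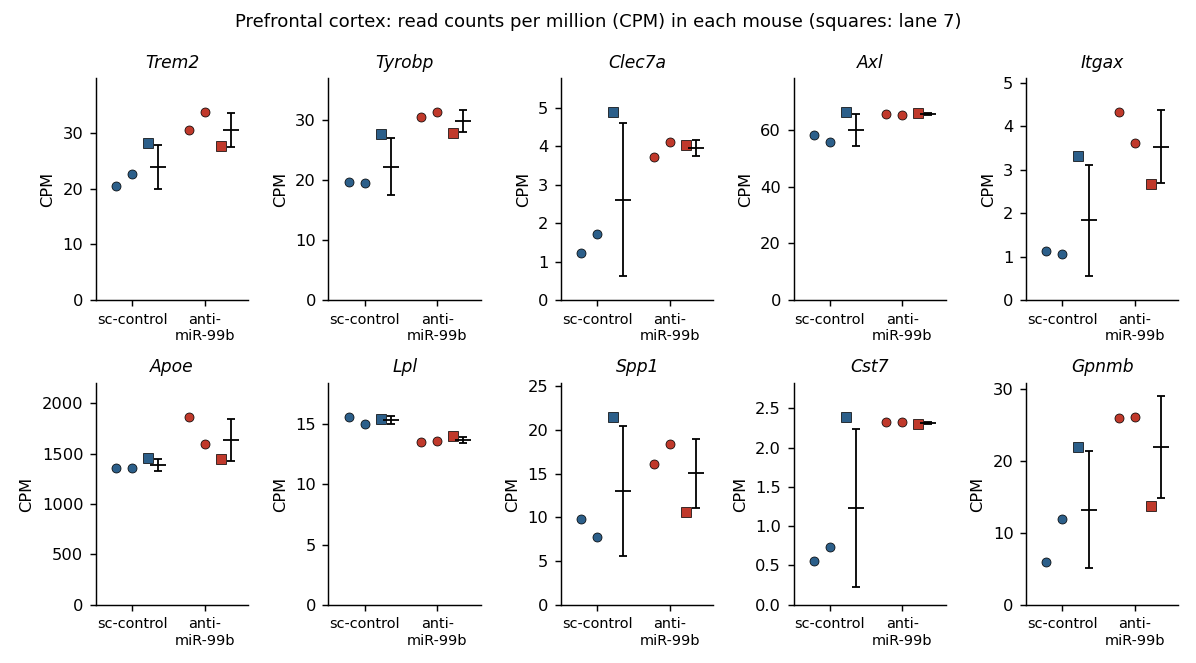
Level of each member (CPM, axis from 0) in the 3 sc-control (blue) and 3 anti-miR-99b (red) mice, with the mean ± SD in black. Squares mark the 2 mice sequenced in lane 7, sc-control replicate 4 and anti-miR-99b replicate 3, and the square control is the highest of the 3 controls in every member but Lpl.

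Microglial content moved with the members in these mice. Its geometric mean was 14.5, 16.3 and 14.2 CPM with anti-miR-99b and 11.2, 10.9 and 15.6 CPM with sc-control, the last being replicate 4 again. Relative to content, 0 members were called, where 0.179% of all genes were called higher and 0.109% lower, and the log2FC of Trem2 was 0.09 and of Tyrobp 0.17. This fit, too, gave all genes 1 common spread. Without sc-control replicate 4, 5 members were called higher: Trem2 (0.50), Tyrobp (0.61), Clec7a (1.44), Itgax (1.68) and Cst7 (1.84), where 1.11% of 17630 genes were called higher. That mouse was left out after its levels were seen to be near those of the anti-miR-99b mice, so that larger differences follow from its removal. Relative to content, Clec7a, Itgax, Cst7, Gpnmb and Spp1 were then called higher, where 1.34% of genes were, and Lpl lower, where 70% of genes were. With 3 against 2 mice an exact permutation test cannot reach p = 0.05. The lanes split the same way. Between the 4 mice in lane 6 the difference of mean log2 CPM was 0.56 for Trem2, 0.65 for Tyrobp, 1.17 for Clec7a, 1.58 for Gpnmb and 0.94 for Spp1, whereas between the 2 mice in lane 7 it was -0.03, 0.01, -0.25, -0.65 and -0.98. Lpl gave -0.17 in lane 6 and -0.14 in lane 7. With 1 mouse a group in lane 7, lane and mouse cannot be told apart. Monocyte and neutrophil markers were low, at 4.78 to 6.43 CPM summed over 5 genes with anti-miR-99b and 2.43 to 5.16 CPM with sc-control, but all 5 genes were higher with anti-miR-99b, with a median log2FC of 0.70 (0.49 relative to content) and 0 called. The 6 border macrophage markers summed to 11.1 to 13.2 against 10.4 to 13.5 CPM. The part of these cells in the member levels was not tested.

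In the primary microglia, 0 of the 10 members were called with thresholds of 0.1 for both the adjusted p-value and the log2FC (edgeR), where 0.488% of 14953 genes were. DESeq2 called 0 too, and 1 member, Axl, was higher at an unadjusted p-value under 0.05, as were 3.4% of all genes. Depth was not the limit here, with 9071 to 25965 reads per library for Trem2 and Axl. Trem2 was at 711.5, 740.3, 747.6 and 714.2 CPM with anti-miR-99b and at 757.4, 708.5, 739.6 and 710.3 CPM with sc-control, and the groups overlapped fully. Its log2FC was 0.00 with a 95% interval of -0.06 to 0.06. Spp1 (0.03, interval -0.04 to 0.11), Gpnmb (0.01, -0.04 to 0.06) and Tyrobp (-0.01, -0.07 to 0.05) lay equally close to 0, as did Lpl (0.00, -0.06 to 0.05) and Clec7a (-0.03, -0.10 to 0.03). Apoe, at 0.05 (-0.03 to 0.14), Cst7, at 0.06 (-0.05 to 0.16), and Itgax, at 0.03 (-0.10 to 0.16), had somewhat wider intervals.

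Axl was the member nearest to a call. It was at 445, 467, 475 and 475 CPM with anti-miR-99b and at 428, 432, 456 and 423 CPM with sc-control, so that 3 of 4 treated libraries lay above all controls. The log2FC was 0.10 ± 0.03 (unadjusted p = 0.0033, adjusted p = 0.339, edgeR; exact permutation p = 0.0571), and the difference of mean log2 CPM was 0.08 within lane 5 and 0.11 within lane 6. Relative to content no member was called, where 0.334% of all genes were called higher and 0.0669% lower, and content itself differed by 0.02 on the log2 scale.

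**Figure D5:**
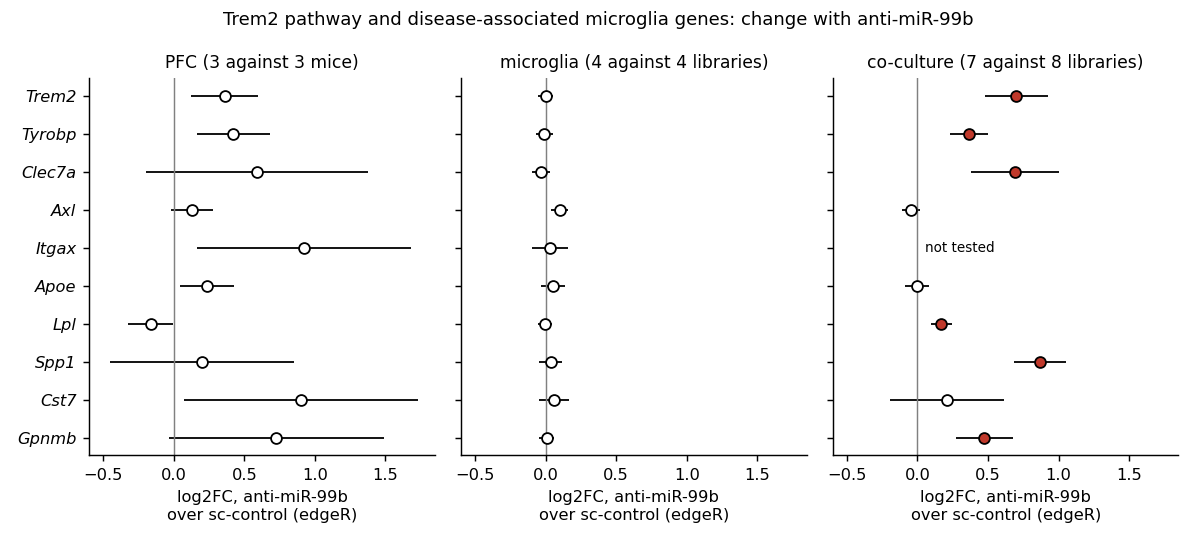
log2FC of each member (anti-miR-99b over sc-control, with 95% interval) in the PFC, microglia and co-cultures. Red points passed the threshold of their experiment, which 6 members did in the co-cultures, and Itgax was not tested there.

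The difference of effect between experiments was tested in 1 fit over the 29 libraries, without scaling to microglial content. The rise of Trem2 in the co-cultures exceeded its change in the microglia by 0.68 ± 0.13 on the log2 scale (adjusted p = 0.0171, edgeR), the only member called in that contrast, where 0.0844% of 18963 genes were. Spp1 differed there by 0.81 ± 0.19 (adjusted p = 0.102). Lpl differed between co-cultures and PFC by 0.33 ± 0.08 (adjusted p = 0.0423), with opposite signs in the 2 experiments, where 0.791% of genes were called. Between microglia and PFC 0 members were called, where 0.469% of genes were, and the nearest was Tyrobp at -0.41 ± 0.11 (unadjusted p = 0.00101, adjusted p = 0.102), 1 of 7 members with an unadjusted p-value under 0.05, as 11.9% of all genes had. With limma-voom the counts of members called were 2 for co-culture against microglia, 0 for co-culture against PFC and 1 for microglia against PFC.

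Of 13 genes of Trem2 signalling and shedding, which include Syk and Plcg2, 1 was called higher in the co-cultures, the adaptor Blnk at 0.27 ± 0.07 (adjusted p = 0.0356, edgeR), and 0 in the microglia or the PFC. Scaled to content, 0 of the 13 were called higher in the co-cultures and 2 lower, where 0.55% and 16.2% of all genes were. Of 9 other Trem and DAP12-coupled receptors, 2 could be tested in the co-cultures and 1 was called, Clec5a at 0.55 ± 0.14 (adjusted p = 0.0434). Of 21 further disease-associated genes 20 were tested in the co-cultures, and 6 were called higher, where 0.846% of all genes were. They were Cd68, a lysosomal membrane protein, at 0.43 ± 0.05, Ctsz at 0.27 ± 0.05, Ctsb at 0.11 ± 0.02 and Ctsd at 0.17 ± 0.03, all cathepsins but the first, with Ctsl and Lgals3 beside them. Relative to content, Cd68 alone of these was called higher. In the microglia 1 of the 20 tested was called higher, Lgals3bp at 0.24 ± 0.05, and in the PFC 0 were. None of the 4 TAM receptors and ligands, 14 genes of lipid handling or 6 receptors for osteopontin and Gpnmb was called in any of the 3 experiments. Of 10 transcription factors, 4 Clec7a signalling genes and 3 partners of Cst7 and Itgax, 1 was called in 1 experiment, Ctsl in the co-cultures.

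Homeostatic microglial genes are known to fall when the disease-associated programme rises. Of 11 such genes 10 were tested in the co-cultures, of which 2 were called higher and 0 lower, where 0.846% and 0.556% of all genes were. Scaled to content, 3 were called higher and 1 lower, where 0.55% and 16.2% of all genes were. Cx3cr1, the fractalkine receptor, was 0.39 ± 0.08 higher (adjusted p = 0.0107, edgeR) and Olfml3 0.45 ± 0.10 higher (adjusted p = 0.0121). In the PFC and the microglia 0 homeostatic genes were called. The interferon-stimulated list had 12 of 15 genes called higher in the microglia, where 0 members and 0.488% of all genes (either direction) were called. Its smallest p-value there was that of the transcription factor Irf7 at 0.65 ± 0.11 (adjusted p = 0.0106, edgeR). With 1 library left out, 0 to 234 genes of the microglia were called higher, and 0 without sc-control replicate 4. In the co-cultures 1 of the 15 was called higher, Rsad2, and in the PFC 1, Mx2, where 0.846% and 0.0864% of all genes were. Relative to content 3 and 6 were called higher, where 0.55% and 0.179% of all genes were. Each of the 15 genes had a positive log2FC in each experiment, with a median of 0.57 in the microglia, 0.22 in the co-cultures and 1.03 in the PFC.

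Over the 6 group means, the genes nearest to Trem2 among 13650 genes were Cx3cr1, Ly86 and Csf3r, by the Euclidean distance between centred mean log2 CPM (0.35, 0.63 and 0.69). The genes nearest to Gpnmb were Ctse, Siglec1 and Spp1, at distances of 0.60, 0.80 and 0.93. These distances are set mainly by the large differences in level between tissue and culture.

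Promoter windows from 250 bases before to 50 bases after the start were in RefSeq (GRCm38.p6) for 8 of the members, all but Tyrobp and Lpl. They were searched on both strands for 4 motifs. The PU.1 motif GAGGAAGT was in 1 of 8 members and 3.69% of all promoters, its core GAGGAA, which the longer motif contains, in 5 of 8 and 31.3%, the AP-1 motif TGAGTCA in 2 of 8 and 5.95%, and the E-box CACGTG in 0 of 8 and 8.09%. Spp1 held the longer PU.1 motif, and its window is shown because it had the largest log2FC of the members in the co-cultures, beside that of Gpnmb with AP-1. Motifs are in capitals, on the strand of the gene.
Spp1, PU.1, chr5:104434989-104435014: aaaccagagGAGGAAGTgtaggagca
Gpnmb, AP-1, chr6:49036517-49036541: aggggcaagTGACTCAtgagcacga
Both are plus-strand genes, and the AP-1 motif of Gpnmb reads on the minus strand. These letters describe the windows and not a bound site.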

How the data were processed

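The authors sequenced single-end TruSeq poly(A) libraries, aligned them with STAR 2.5.2b to mm10 and counted reads per gene with featureCounts 1.5.1, per the submitters' notes, and deposited raw counts per Ensembl gene. The annotation release and strand setting are not given in the sources used here. Symbols, loci and exon lengths came from GENCODE M21 (GRCm38), which named 48349 of 48709 identifiers. Each experiment was fitted alone in edgeR 4.0.16 (R 4.3.3): filterByExpr, TMM factors, quasi-likelihood test, Benjamini-Hochberg adjustment over all genes tested. Thresholds for PFC and co-cultures were those in the results text of the study. That text states none for the microglia, so the thresholds there were chosen for this report. The SE is the log2FC divided by the square root of F. For values relative to content, effective library sizes were multiplied by the content factor. Differences of effect used 1 fit over 6 groups. Permutation tests were exact and two-sided on log2(CPM + 0.5). DESeq2 1.42.0 and limma 3.58.1 served as alternatives. The fit was tested on simulated data. The members and all lists were chosen with earlier results of these data known. All 10 members are named. Of each list, at most 4 called genes with the smallest p-values were to be named per experiment. Cd53, Ctsl and Lgals3 were named as well, being in counts of 6 or fewer. Groups come from the sample labels, and replicate numbers and lanes from the library names. A further promoter motif is not reported here. The depth of 21324156 to 37901110 reads limits members under 1 CPM in the co-cultures.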

Additional observations from a re-analysis of the deposited data

Results flagged for a closer look

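The effect of anti-miR-99b on Trem2 differed between the co-cultures and the microglia. The log2FC was 0.70 in the co-cultures and 0.00 in the microglia, and the difference of 0.68 passed the test of the difference itself (adjusted p = 0.0171, edgeR over all 29 libraries). Scaled to content, Trem2 was at 0.59 ± 0.09 in the co-cultures and at -0.02 ± 0.03 in the microglia. The difference was not tested on that scale. The effect on Lpl differed between the co-cultures and the PFC, with a log2FC of 0.17 and -0.16 and a difference of 0.33 (adjusted p = 0.0423). The call of this difference was not made with limma-voom. By itself the PFC change of Lpl did not pass (adjusted p = 0.660, edgeR). Scaled to content, Lpl was at 0.04 ± 0.06 in the co-cultures (adjusted p = 0.551, edgeR) and at -0.45 ± 0.22 in the PFC (adjusted p = 0.393, edgeR). No library of the 40 combinations of member and group with 4 or more libraries lay outside the limit of Dixon's test.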

How the results depend on the processing

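The 6 members called in the co-cultures kept their direction in every setting tried on the CPM scale. Apart from the replicate block described below, calls lost there were Clec7a without anti-miR-99b replicate 2, 3 or 5 or sc-control replicate 4 (adjusted p = 0.0520 without the first), Lpl without anti-miR-99b replicate 10 (0.0606) or sc-control replicate 4 (0.0535), and Clec7a with lane as a term (all edgeR), and 4 to 6 members were called when 1 library was left out. Members under 1 CPM are limited by their reads. With a pseudocount of 0.1 or 2 CPM, 6 members in the co-cultures still had an exact permutation p-value under 0.05, and the p-value of Itgax moved most, from 0.275 to 0.410.

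Numbers of genes called higher and lower changed more. In the PFC they were 85 and 8 with DESeq2, 297 and 115 without the filter, 208 and 107 with an RUVs factor and 73 and 4 with lane as a term, and 1 to 195 and 0 to 6 when 1 mouse was left out. In the microglia they were 33 and 5, 138 and 29, and 116 and 42 in the first 3 of these settings, and 0 to 234 and 2 to 175 with 1 library left out. In the co-cultures they were 281 and 234 with RUVs and 85 and 36 with lane, and 89 to 159 and 49 to 141 with 1 library left out. Without the filter 5 members were called in the PFC and 1, Axl (adjusted p = 0.0560), in the microglia. Leaving out 1 mouse gave 0 to 5 members higher in the PFC, and relative to content 0 to 5 higher and 0 to 1 lower. Relative to content, 2 PFC members were higher with the homeostatic list as content and 3 with Csf1r alone, an alternative added after seeing the data. In the co-cultures the members lower relative to content were 2 with the homeostatic list, 3 with Csf1r and 0 with lane, and 0 to 2 with 1 library left out. The main scaling called 16.2% of all genes lower in the co-cultures, and 70% in the PFC without sc-control replicate 4. Shares of all genes under the other scalings are not given here, so these counts are no result about the members.

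Directions turned for members near 0. Relative to content in the PFC, Axl (0.025) and Apoe (0.14) turned with the homeostatic list, and Spp1 with summed CPM (-0.0022) and Csf1r (-0.0037). In the microglia Trem2 (0.0038) and Lpl (7.4e-05) turned without the filter and Trem2 (0.0014) with RUVs, and relative to Csf1r so did Itgax (-0.016) and Spp1 (-0.014). In the co-cultures Apoe turned with RUVs (0.0034) and lane (0.00065), and relative to Csf1r Lpl (-0.16) and Cst7 (-0.11). With 1 library left out, Spp1 in the PFC ranged from -0.058 to 0.77, relative to content from -0.19 to 0.32, and Apoe relative to content from -0.18 to 0.027. In the microglia Trem2 ranged from -0.017 to 0.018, Tyrobp from -0.024 to 0.011, Gpnmb from -0.0047 to 0.018, Itgax from -0.031 to 0.093 and Lpl from -0.020 to 0.0058, and relative to content Apoe from -0.0090 to 0.084, Cst7 from -0.011 to 0.083, Itgax from -0.062 to 0.073 and Spp1 from -0.023 to 0.065. Apoe in the co-cultures ranged from -0.024 to 0.034. With limma-voom 1, 0 and 2 members differed between microglia and PFC, co-culture and PFC, and co-culture and microglia. The cause of these changes was not tested.

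Libraries with equal replicate numbers did not deviate together (correlations from -0.28 to 0.05), so the numbers were not taken as pairs. With a replicate block over the shared numbers, 475 genes were higher and 43 lower in the PFC with 7 members called, 162 were lower in the microglia, and 70 and 23 were higher and lower in the co-cultures. Relative to content the block gave 3 members higher and 3 lower in the PFC and 2 and 0 in the co-cultures. Under the block Trem2 (0.033), Tyrobp (0.064) and Clec7a (0.020) turned in the microglia, as did Trem2 (0.0081) and Tyrobp (0.038) relative to content, and Apoe (0.065) in the co-cultures, where Clec7a (adjusted p = 0.359) and Lpl (0.0752, edgeR) were no longer called. Crossed numbers in the PFC, a pairing added after seeing the data, gave 551 genes higher and 87 lower with 7 members, and 4 higher and 1 lower relative to content. For the block and the crossed numbers, shares of all genes relative to content are not given here, so those member counts are no result either.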
